A study of Caenorhabditis elegans with 4 samples.

Results

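Chromosome II carried 1423 of the 9214 peaks in the authors' whole-series list from a chromatin immunoprecipitation and sequencing (ChIP-seq) experiment in adult Caenorhabditis elegans. These peaks were chosen by position alone, as every peak of that list whose chromosome is II, with coordinates on WormBase build WS220. The series has 2 ChIP samples and 2 input samples of sheared DNA without immunoprecipitation, all from hermaphrodites of strain fem-2(b245), genotype fem-2(b245)III, described as young adults with a germline and kept at 20 degrees Celsius. No sample was wild type, so the mutation in fem-2, which encodes a phosphatase of the sex determination pathway, was shared by all of them. The 2 ChIP samples have a peak list each, with 223 peaks on II in replicate 1 (of 1178 in all) and 1050 in replicate 2 (of 6421). Nothing in the labels says whether the replicates were separate cultures.

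The sample titles name KLE-2, while the antibody record of the same samples names CEC-1, and the lists do not settle which protein was precipitated. KLE-2 is the kleisin subunit that closes the ring of condensin II, a complex that compacts and helps to separate chromosomes in mitosis and meiosis. CEC-1 is a chromodomain protein of chromatin. An autosome of this worm has a gene-dense centre and 2 arms that are richer in repeats, recombine more and carry more histone methylation of silent chromatin. On chromosome II the pairing centre, where homologues meet in meiosis, lies towards the left end.

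The most marked feature of chromosome II was a difference between its arms, each defined here as the terminal 25% of the chromosome. The left arm held 312 whole-series peaks and the right arm 469, or 81.7 per Mb (exact 95% Poisson interval 72.9 to 91.3) and 123 per Mb (112 to 134). The left arm therefore had 39.9% of the arm peaks (exact 95% binomial interval 36.5 to 43.5%, exact two-sided binomial test against 50%, p adjusted over 6 tests = 1.28e-07). Both replicate lists had the same direction. Replicate 1 had 30 peaks on the left arm and 78 on the right, a left share of 27.8% (19.6 to 37.2%). Replicate 2 had 194 on the left and 331 on the right, a left share of 37.0% (32.8 to 41.2%). All such tests and intervals treat peaks as independent, which neighbouring peaks are not, so they cover counting error only and the p-values are too small. When peaks less than 2000 bp apart were merged into 1 cluster, the left arm had 42.6% of the arm clusters (38.1 to 47.3%, exact p = 0.0018).

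The other autosomes together did not lean the same way. On I, III, IV and V together 2000 arm peaks lay on the left and 1791 on the right, so the left share on II was 12.8 percentage points lower (a difference of -12.8, 95% interval -16.5 to -8.98, Fisher's exact test, p adjusted over 4 tests added after the lists were seen = 3.13e-10). The difference was also negative in the list of replicate 1 (27.8% on II against 49.6% on the others, adjusted Fisher's exact p = 4.07e-05) and in that of replicate 2 (37.0% against 51.5%, adjusted p = 2.95e-09). The pooled value hides autosomes that go opposite ways. Chromosome III was like II, with left shares of 41.2% (whole-series list), 41.8% (replicate 1) and 39.3% (replicate 2). Chromosome I was the reverse, with 61.9%, 61.3% and 59.7%, and IV and V lay between I and III in the whole-series list. A lean to the right arm was thus not particular to II. With 1 chromosome against 4, an exact permutation test over autosomes cannot give a p under 0.2.

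**Figure D1:**
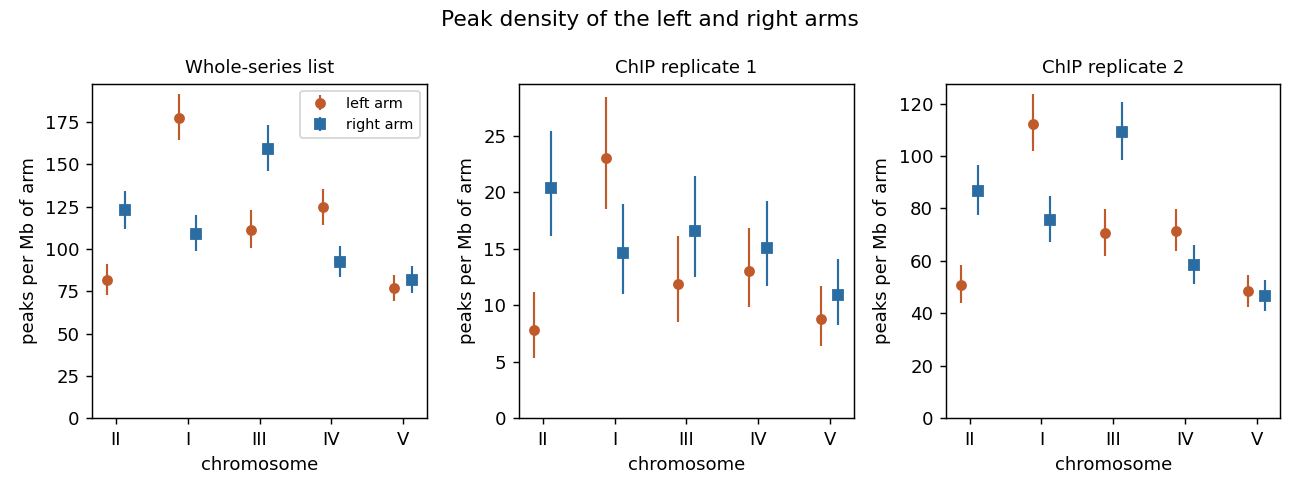
Peaks per Mb (y axis) on the left arm (circles) and right arm (squares) of each autosome (x axis) in the 3 peak lists, with exact 95% Poisson intervals as bars. On II the right arm was above the left in all 3 lists, with 81.7 per Mb on the left and 123 on the right (whole-series list), 7.85 and 20.4 (replicate 1), and 50.8 and 86.7 (replicate 2).

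Along the chromosome the low stretch and the high stretches were in the same places in the lists. In 1 Mb windows the sparsest ran from 2000001 to 3000000, with 63 whole-series, 6 replicate 1 and 37 replicate 2 peaks, each the lowest of the 15 full windows for its list. The densest whole-series window ran from 11000001 to 12000000, with 138 whole-series, 24 replicate 1 and 104 replicate 2 peaks. Replicate 1 had its highest count, 26, in the window from 14000001 to 15000000, which held 133 whole-series and 83 replicate 2 peaks. The median full window held 86 whole-series, 15 replicate 1 and 68 replicate 2 peaks. In the whole-series list the left arm's low count lay away from the terminal megabase, in the third and the fourth window, with 63 and 70 peaks. The first window had 86, equal to the median, and the second 105. In the replicate lists these windows were all below the median. From the left end they held 8, 10, 6 and 7 peaks in replicate 1 and 56, 59, 37 and 49 in replicate 2.

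The right arm had its own pattern of high and low stretches. The 5% of the length just past the boundary of the right arm, from 75 to 80%, held 115 whole-series peaks, 20 of replicate 1 and 96 of replicate 2. The next 5% held 61, 7 and 42. From 90 to 95% the counts were 125, 18 and 79. All 3 lists were thus high, low and high again over these bins. In the last 5% replicate 1 was higher still, at 21, while the whole-series list fell to 79 and replicate 2 to 49. Over the 152 full 100 kb windows of II the counts of the 2 replicates had a Spearman's rho of 0.50 (Pearson's r 0.51), given as a description because neighbouring windows share sequence and domains. The range over the other autosomes was 0.44 to 0.56 for rho. Replicate 1 had no peak in 41 of the 152 windows and replicate 2 none in 1.

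**Figure D2:**
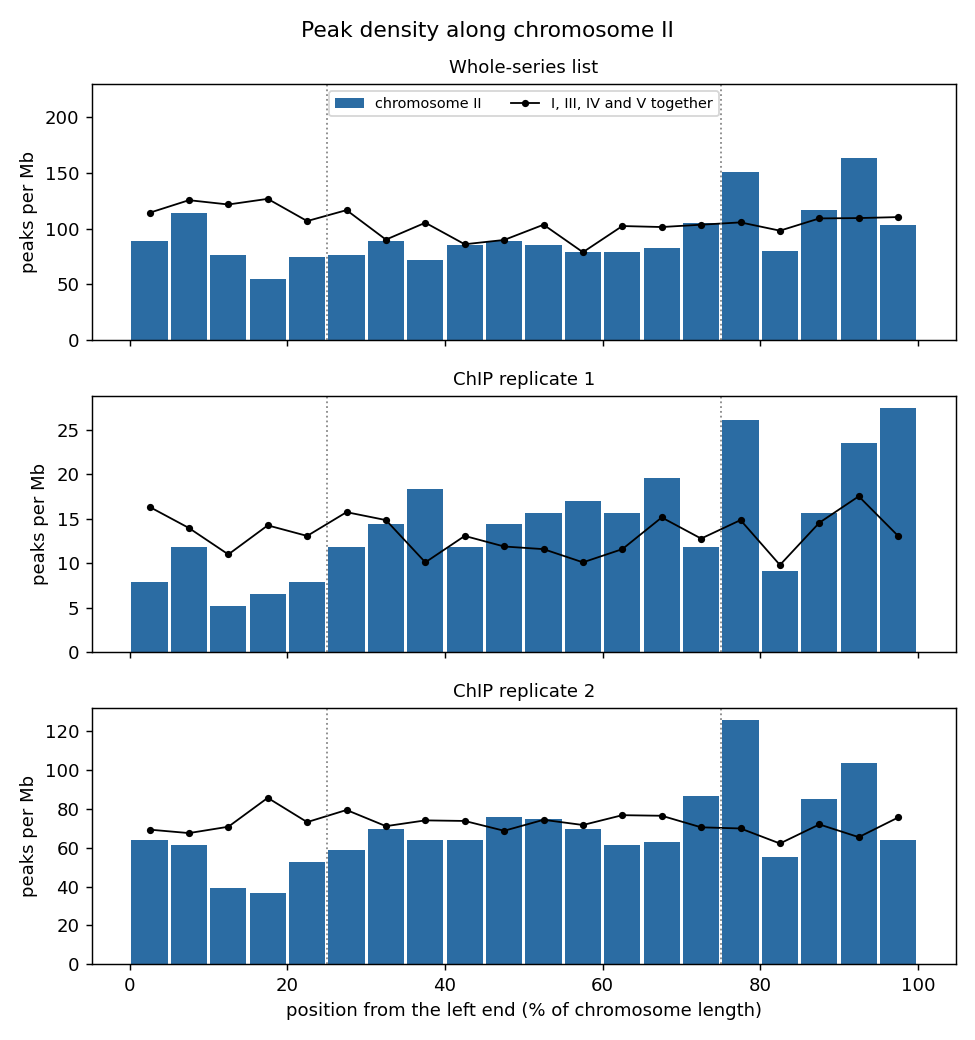
Peaks per Mb (y axis) in bins of 5% of the chromosome length (x axis, from the left end) on II (bars) and on I, III, IV and V together (line with points), in 3 panels for the 3 lists. Dotted lines mark 25% and 75%, the inner ends of the arms. In all 3 panels the bars from 10 to 25% lie below the line and those from 75 to 80% and from 90 to 95% lie above it.

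The tips of the chromosome carried peaks in all 3 lists on the left and with some disagreement on the right. The first whole-series peak ran from 91 to 241 (score 22.87), inside the first peak of replicate 1 (2 to 1016, score 590) and the first of replicate 2 (1 to 1172, score 179). At the right end the last whole-series peak ran from 15263053 to 15263342 (score 28.18) under a replicate 2 peak. Replicate 1 had a further peak beyond it, from 15275822 to 15277534 (score 128), with no whole-series peak on it. Within 500 kb of the ends, replicate 1 had 3 peaks on the left and 16 on the right, and replicate 2 had 27 and 36. In the outermost 100 kb the order was reversed in the whole-series list (14 on the left, 9 on the right) and in replicate 2 (10 and 6), while replicate 1 had 1 and 2.

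In total, II was of middling peak density among the autosomes. It had 93.1 whole-series peaks per Mb (88.4 to 98.1), against 105 per Mb (103 to 108) on the other 4 together, a ratio of 0.89 (exact 95% interval 0.84 to 0.94, exact binomial test, p adjusted over the 3 lists = 6.94e-05). Chromosome V was lower, at 75.3 per Mb, and I was highest at 132. The deficit ended as a call when chromosome I was left out of the comparison (ratio 0.96, exact p = 0.139) and when clusters were counted (0.95, exact p = 0.202). In replicate 2 the ratio was 0.95 (0.89 to 1.02, adjusted exact p = 0.198) and in replicate 1 it was 1.10 (0.95 to 1.27, adjusted exact p = 0.204), so neither replicate list passed the test and they lay on opposite sides of 1. Whole-series peaks covered 4.38% of II and 4.76% of the other autosomes, replicate 1 peaks 2.41% and 2.07%, and replicate 2 peaks 8.80% and 9.34%.

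Arms and centre together showed no difference between II and the other autosomes beyond counting error. The arms held 781 of the 1423 whole-series peaks of II (54.9%, 52.3 to 57.5%, exact binomial test against 50%, adjusted p = 0.000754). The other autosomes had 53.6% on arms, a difference of 1.32 percentage points (95% interval -1.53 to 4.14, adjusted Fisher's exact p = 0.367). The excess on arms of II was carried by the right arm, since the left arm held 21.9% of the peaks, the left centre 22.1%, the right centre 23.0% and the right arm 33.0%, each segment being 25% of the length. It did not pass the test among the 50% of peaks with the highest scores (50.3%, exact p = 0.883) or with clusters (52.1%, exact p = 0.227). The replicate lists had 48.4% (replicate 1) and 50% (replicate 2) of their peaks of II on arms.

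Peak scores were lowest on the left arm of II, as they were on the other autosomes. Scores are those of the authors' peak caller on a scale that is not stated, and are compared only within a list. The median whole-series score was 6.88 on the left arm (interquartile range 4.13 to 19.9), 12.8 in the left centre, 16.0 in the right centre and 11.1 on the right arm (5.13 to 38.0). Median widths in the same order were 271.5, 332, 378 and 342 bp. The left arm held 25 of the 174 peaks of II that were among the 10% of nuclear peaks with the highest score, and the right arm 59. On the other autosomes together the medians in the same order of segments were 8.30, 12.3, 12.4 and 9.30, and the left arm was lowest on I, III and IV and level with the right arm on V. The left arm's share of peaks in that top 10% was 8.01% on II and 8.25% on the others. In replicate 2 the median was also lowest on the left arm and highest in the right centre, with 258 on the left arm, 495 in the left centre, 774 in the right centre and 515 on the right arm. In replicate 1 the 30 peaks of the left arm had the highest median of the 4 segments, at 187, against 135, 140 and 148. Replicate 1 thus had few peaks on the left arm, and their median score was not below that of its other peaks.

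**Figure D3:**
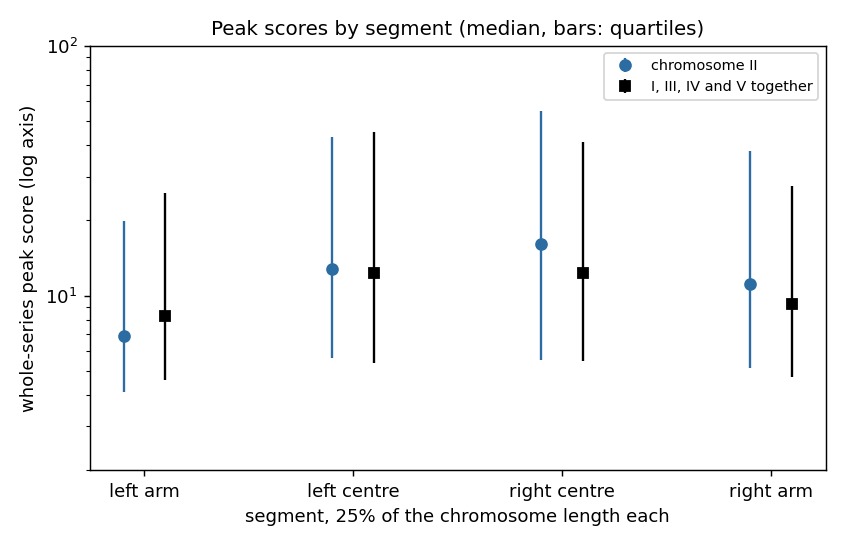
Whole-series peak score (y axis, log scale) in 4 segments of 25% of the length (x axis) on II (circles) and on I, III, IV and V together (squares). Points are medians and bars run between the quartiles. On II the median was lowest on the left arm, at 6.88, and highest in the right centre, at 16.0.

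Most whole-series peaks of II were also found in a replicate list. Whether the whole-series list was called on the pooled replicates is not stated, so these overlaps are not independent of it. A peak of at least 1 replicate overlapped, by 1 bp or more, 1143 of the 1423 (80.3%, 78.2 to 82.4%), where the share over all nuclear peaks was 76.8%. Both replicates overlapped 248 (17.4%, 15.5 to 19.5%; 14.3% over all nuclear peaks), replicate 2 alone 862 (60.6%), replicate 1 alone 33 (2.32%) and neither 280 (19.7%; 23.2% over all nuclear peaks). Counted by list, replicate 1 overlapped 281 peaks (19.7%; 15.8% over all nuclear peaks) and replicate 2 1110 (78.0%; 75.3% over all nuclear peaks).

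The share in both replicates was 3.24 percentage points higher on II than on the other autosomes (17.4% against 14.2%, 95% interval 1.18 to 5.45, adjusted Fisher's exact p = 0.00314). Taken singly the other autosomes ranged from 12.9% (III) to 14.8% (I), so II was above each of them. Among the 50% of peaks with the highest scores the difference was 3.29 points and did not pass the test (Fisher's exact p = 0.0587). The share in at least 1 replicate was 3.26 points higher on II (80.3% against 77.1%, interval 0.90 to 5.47, adjusted Fisher's exact p = 0.00872), but I and III had 80.3% and 80.6%, and without IV in the comparison the difference fell to 1.71 points (Fisher's exact p = 0.164). For any overlap with replicate 2 the difference was 2.17 points (78.0% against 75.8%, Fisher's exact p = 0.0819), and for any overlap with replicate 1 it was 4.33 points (19.7% against 15.4%, Fisher's exact p = 7.69e-05).

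Overlap with the replicates was lowest on the left arm of II, where the median score was also lowest. It did not follow the score elsewhere. The right arm had a lower median score than the left centre (11.1 and 12.8), with 17.3% and 17.8% in neither replicate. On the left arm 111 of 312 peaks (35.6%) were in neither replicate, against 81 of 469 (17.3%) on the right arm, a difference of 18.3 points (interval 12.01 to 24.6, adjusted Fisher's exact p = 1.33e-08, a comparison chosen after the lists were seen). The other autosomes together had 27.9% on left arms and 25.9% on right arms. So high a share was not confined to II, since the left arm of IV had 34.3% and the right arm of V 33.4%. Both replicates overlapped 24 left arm peaks of II (7.69%) and 95 of its right arm peaks (20.3%). On the other autosomes together it was 13.1% on each arm. In the right centre of II 32 of 328 peaks (9.76%) were in neither replicate and 73 (22.3%) in both. The right centres of the other autosomes together had 18.3% and 14.7%. The lower scores of the left arm of II moved with its higher share in neither. Among peaks in the lower 50% by score 108 of 188 left arm peaks (57.4%) and 75 of 221 right arm peaks (33.9%) were in neither, a difference of 23.5 points (13.9 to 32.6). In the upper 50% it was 3 of 124 and 6 of 248 (2.42% on each arm), a difference of 0 points (-3.18 to 4.64). The difference between the arms was thus seen among the lower-scored peaks, and few higher-scored peaks of either arm were in neither.

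**Figure D4:**
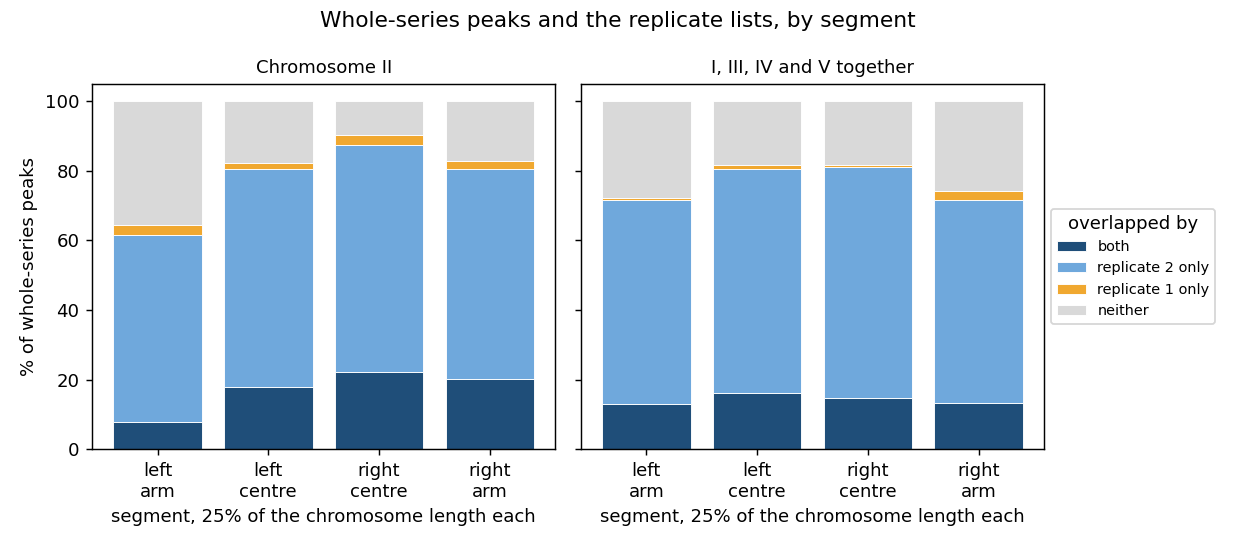
Share of whole-series peaks (y axis, %) by overlap class (both replicates, 1 of them, or neither) in 4 segments of 25% of the length (x axis), on II and on I, III, IV and V together. The share in neither was 35.6% on the left arm of II and 9.76% in its right centre, against 27.9% and 18.3% on the other autosomes.

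The groups by overlap differed in score and width. Peaks of II in both replicates had a median score of 83.2 and a median width of 632.5 bp, those in replicate 2 alone 14.0 and 323 bp, and those in neither 4.32 and 223 bp. The 33 peaks in replicate 1 alone were wide for their score, with medians of 872 bp and 9.39. On the other autosomes the 87 such peaks had medians of 420 bp and 7.32. In the upper 30% of the nuclear scores, from 24.52 up, none of the 470 peaks of II was in neither replicate. On the other autosomes it was 9 of 2179, with 1 of 621 on I, 1 of 579 on III, 3 of 512 on IV and 4 of 467 on V. Such peaks were thus rare on every autosome, and their absence was not a marked trait of II. Of the peaks of II in the highest 10% of scores, 69.5% were in both replicates, against 66.1% on the other autosomes (73.2% on IV), and in the lowest 10% it was 8.16% against 5.01%.

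Seen from the replicate lists, 198 of the 223 replicate 1 peaks of II lay on a replicate 2 peak (88.8%, 83.9 to 92.6%), against 91.9% (89.95 to 93.6%) on the other autosomes. In the other direction it was 193 of 1050 replicate 2 peaks (18.4%, 16.1 to 20.9%), against 16.5% (15.4 to 17.5%). On II the 25 unshared replicate 1 peaks were wider, at a median of 1782 bp, than the shared ones, at 1208 bp. Chromosomes III (1477 and 1135 bp) and V (1278 and 1199.5 bp) had the same order, and I (1071 and 1204 bp) and IV (1024 and 1333 bp) the opposite one. Of these 25, 64.0% were on arms, near the 65.3% of the same class on the other autosomes. Whole-series peaks lay on 211 of the 223 replicate 1 peaks (94.6%) and on 899 of the 1050 replicate 2 peaks (85.6%). Over all nuclear peaks of the 2 lists these shares were close to that, at 93.7% and 85.8%. A single replicate 2 peak overlapped up to 7 whole-series peaks on II and up to 9 on the other autosomes. On II 159 replicate 2 peaks (15.1%) overlapped 2 or more, against 16.0% over all nuclear peaks. Among the 198 shared sites the scores of the replicates had a Spearman's rho of 0.40 (0.31 on the other autosomes, 821 sites), a description only, since 192 of the replicate 2 peaks of II were at the limiting score of 3100 or above.

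Widths on II were close to those on the other autosomes. The median whole-series peak was 330 bp wide (exact 95% interval of the median 314 to 343), with an interquartile range of 219.5 to 520.5 bp, and the other autosomes had medians of 325 bp (V) to 337.5 bp (III). The median score was 10.6 (9.39 to 12.3), just above the range of the other autosomes, 9.06 (IV) to 10.3 (I and III), whose intervals overlapped that of II. Of the peaks of II, 12.2% (10.6 to 14.0%) were in the top 10% of nuclear scores, against 10.2% (9.51 to 10.9%) of the others. Wide peaks had high scores, with a Spearman's rho of 0.72 between width and score over the 1423 peaks.

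Peaks of 2000 bp or more were a small class on II, at 28 peaks (1.97%), against 98 (1.38%) on the other autosomes. Both replicates overlapped 20 of the 28 (71.4%) and 62 of the 98 (63.3%), and 1 and 22 were in neither. Chromosome IV was like II, with 1 of 26 in neither, while III had 10 of 26. The widest peak of II was the only 1 of the 5 widest that was not in both replicates. It ran for 8920 bp from 3159579 to 3168498, had a modest score of 16.64, and was overlapped by replicate 1 (score 175) and not by replicate 2. The other 4 of the 5 widest were in both replicates, with 3100 in replicate 2. They ran from 14600531 to 14606661 (6131 bp), 693611 to 699450 (5840 bp), 11756639 to 11761964 (5326 bp) and 15137649 to 15142923 (5275 bp). The peak from 11756639 was also at 3100 in replicate 1. All 5 lay on arms, 2 on the left and 3 on the right.

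Of the 10 highest-scored peaks of II in both replicates, 7 lay in the centre, 2 on the left arm and 1 on the right. Of all 248 peaks of II in both replicates 48.0% lay on arms, and 10 peaks are too few to tell a difference from that share. The whole-series scores of the 10 ran from 217.65 to 238.13, and each was at 3100 in replicate 2, so replicate 2 does not rank them. Replicate 1 separated them widely. The peak from 10033340 to 10035034 had the highest whole-series score of II, 10th among autosomal peaks, and 2939 in replicate 1. It was followed by the peak from 5346296 to 5348071 (235.68, with 1959 in replicate 1) and the shorter one from 8569075 to 8569837 (233.42, with 574 in replicate 1). Both high peaks on the left arm had lower replicate 1 scores, 122 for the one from 2001773 to 2004021 and 134 for the one from 1320152 to 1321536.

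Other named peaks lacked a peak of the other replicate, or were whole-series peaks in neither. The highest-scored replicate 1 peak of II with no replicate 2 peak ran from 1450223 to 1455100 on the left arm, with a score of 688 and a whole-series score of 22.1. The next were from 9815852 to 9820139 (4288 bp, score 293) and from 2897233 to 2899403 (2171 bp, score 261). Their whole-series scores were 16.4 and 5.18. Among replicate 2 peaks with no replicate 1 peak, the highest ran from 11021750 to 11022695 (3197), and a neighbouring pair on the left arm, from 216152 to 218011 and from 220260 to 222262, had 3100 each. The whole-series scores at these replicate 2 peaks were, in the same order, 103, 130 and 59.1. Whole-series peaks in neither replicate had low scores. The 5 highest on II scored 13.27 to 19.20, the first from 13990013 to 13990901, and 4 of the 5 were on arms. Of all 280 peaks of II in neither replicate, 68.6% were on arms. Such peaks lay mostly on arms elsewhere too, with 62.9% on the other autosomes together and 63.5% over all nuclear peaks.

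Whole-series peaks on II were less often close together than on the other autosomes, while the wider gaps were larger on V. The median gap between neighbouring whole-series peaks was 3852 bp, against 2638 bp (I) to 3800 bp (V). The upper quartile of the gaps was 13450 bp on II, inside the range of the others, 9224 bp (III) to 18097 bp (V). Of the 1422 gaps 536 were under 2000 bp (37.7%), against 42.1% on the other autosomes, a difference of -4.45 percentage points (interval -7.19 to -1.66, adjusted Fisher's exact p = 0.00314). The replicate lists did not share this. In replicate 2 the difference was -2.07 points (Fisher's exact p = 0.199), and in replicate 1 gaps under 2000 bp were more common on II, at 14.4% against 10.3% (Fisher's exact p = 0.095).

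**Figure D5:**
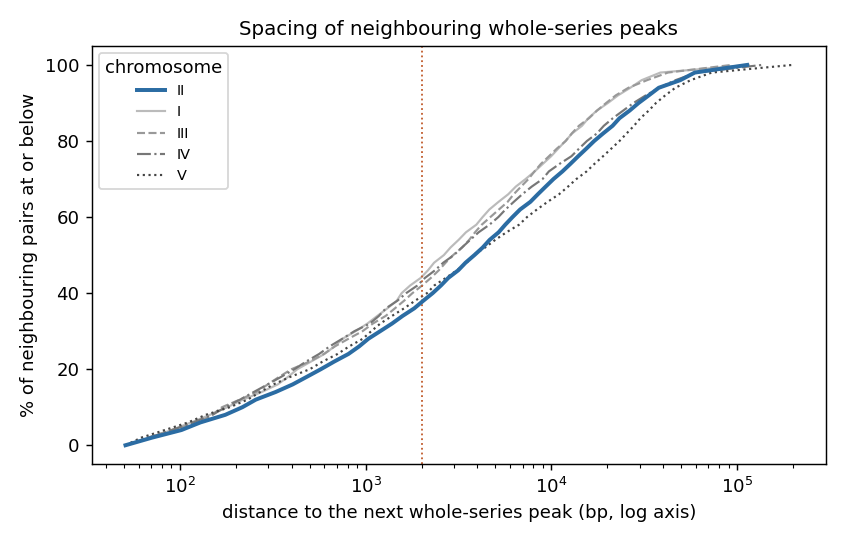
Cumulative share of neighbouring whole-series peak pairs (y axis, %) by the distance between them (x axis, bp, log scale) on II (thick line) and each other autosome (thin lines). The dotted line marks 2000 bp, where II stood at 37.7% and the other autosomes at 38.9% (V) to 44.2% (I).

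Merging peaks under 2000 bp apart gave 887 clusters on II, of which 581 were single peaks. Peaks standing alone made up 40.8% of the peaks of II, against 37.0% on the other autosomes together and 40.6% on V. Clusters of at least 10 peaks, called runs here, held 37 peaks of II (2.60%) in 3 runs, against 350 peaks (4.95%) in 22 runs on the other autosomes, of which V also had 3, with 3.05% of its peaks. Of the 37, 11 (29.7%) were in neither replicate and none was in both. Of the 350, 243 (69.4%) were in neither and 6.86% were in both. With 3 runs on II, its shares rest on few regions.

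The 3 runs of II differed in which replicate contained them. The longest, from 14321210 to 14338815, had 14 peaks, of which replicate 1 overlapped 5 and replicate 2 another 4. The run from 3345006 to 3360094 had 12 peaks, with 8 in replicate 2 and none in replicate 1. That from 9808067 to 9824583 was the opposite, with 9 of 11 in replicate 1 and none in replicate 2. All 3 had low scores, with median scores of 5.55 to 8.44. The next by number were 4 clusters of 8 peaks. In those from 1126547 to 1135348 and from 4047784 to 4058213, replicate 2 overlapped 8 and 4 peaks and replicate 1 overlapped 1 in each. Those from 11961414 to 11968709 and from 13817515 to 13829840 lay mostly in both replicates, with 5 and 6 of 8 peaks. The last had a median score of 85.9, against 12.4 to 13.7 in the other 3.

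Stretches with no whole-series peak were at most 113 kb long on II. They ran from 2639338 to 2752530 (113 kb), 5715368 to 5819696 (104 kb) and 8329278 to 8428936 (99.7 kb). The first, on the left arm, held 1 peak of each replicate, and the other two held none. Replicate 1 left longer stretches empty, the longest being 419 kb from 3524216 to 3943523, where the whole-series list had 25 peaks and replicate 2 had 17. The longest empty stretch of replicate 2, 174 kb from 12284818 to 12458957, held 3 whole-series peaks and none of replicate 1.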

How the data were processed

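Frozen animals were ground before fixation (10 minutes in 1% formaldehyde) and sonication, and each ChIP used 5 µg of antibody, per the labels' protocols. Reads were aligned with BWA to ce10, per the submitters' processing notes. The deposited peak lists name WS220, per the file headers, with MACS v2 (whole-series list) or MACS (replicate lists) as caller, per the file contents. Each peak has a score given by the authors' caller, of unstated scale. Threshold, pooling, input and read filters are not given in the sources used here. With no read counts or input values used here, peak depth is unknown.

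The 2 mitochondrial peaks were left out. WS220 chromosome lengths were set by hand. Segments and arms were assigned by peak midpoint, and overlaps needed 1 bp. Tests were exact binomial and Fisher's exact tests, two-sided, in scipy 1.17.1, with Benjamini-Hochberg adjustment within families of 3, 6 and 4 tests; shares have Clopper-Pearson intervals and differences Newcombe intervals. Overlap and interval code was tested on simulated data. The peaks and regions named were the 10 highest-scored in both replicates, the 5 widest, the 5 highest in neither, the 3 highest in 1 replicate alone, the 5 clusters with the most peaks (with 2 more that tied with the last of these), the 3 longest empty stretches, the densest and sparsest windows, and the first and last peaks. Replicate 1's densest window, the bins of 5% and the tests of left against right arms were chosen after their values were seen. The members, lists and tests were chosen with earlier results of these data known. The gene table at hand is of another build (WBcel235), so genes and sequences at the peaks are not analysed here.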

Additional observations from a re-analysis of the deposited data

How the results depend on the processing

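Leaving out a replicate here means using the list of the other replicate alone, or overlap with it alone. No whole-series list was remade without a replicate, so these values are not a check separate from the replicate lists. Of 77 combinations of a result and an alternative with a test, these included, 56 kept the direction and the side of the threshold. Of 6 without a test, 3 (covered base pairs) stayed within the interval of the density ratio. The left arm deficit of II did so in all of its alternatives (33.3 to 42.6% of arm peaks; 27.8 to 37.0% leaving out a replicate). So did the difference from the other autosomes, an alternative set chosen after seeing the data (-8.23 to -21.8 points). The share in neither replicate on the left minus the right arm was 0 points in the upper 50% of scores, where 3 and 6 peaks were in neither. The cause of the changes that follow was not tested. The whole-series density ratio was 0.95 with clusters and 0.96 without chromosome I. In the lists of replicate 2 and replicate 1 the ratio was 0.95 and 1.10. The replicate 1 ratio was 1.17 without I. The replicate 2 ratio was 1.04 without I, 1.02 without III, 0.92 without IV and 0.84 without V. The arm share of II was 52.1% with clusters, 50.3% in the upper 50% of scores, 51.5% in peaks with a replicate peak, and 48.4 to 50% leaving out a replicate. The arm difference from the other autosomes was 0.87 to -3.75 points leaving out a replicate. The difference in overlap with at least 1 replicate was 1.71 points without IV and 2.17 to 4.33 leaving out a replicate, and that in both replicates 3.29 in the upper 50% of scores. The difference in close spacing was -2.07 to 4.07 points leaving out a replicate. The median width was 466 bp in the upper 50% of scores and 362 bp in peaks with a replicate peak, where the median score was 16.6; selecting peaks by score or overlap selects wider ones by construction. No paired analysis was possible because the inputs that share the replicate numbers have no list used here.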
